A study of Mus musculus with 18 samples.

Results

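The genes of the proteasome were followed through 4 groups of laser-captured mouse thyroid. Members were all genes whose name on the array consists of Psma, Psmb, Psmc, Psmd, Psme, Psmf or Psmg and a number, which gave 44 gene names on 67 probes, out of 27670 genes on the array. They comprise 8 genes of the alpha ring (Psma), 10 of the beta ring (Psmb), the 6 ATPases of the regulatory particle (Psmc1 to Psmc6), 14 genes named Psmd, the activators Psme1, Psme2b-ps, Psme3 and Psme4, and the inhibitor Psmf1. Psmc3ip matched by its name alone, since it codes for a partner of DNA recombination and is not a proteasome subunit. A gene was tested if its Cy5 (tissue) signal cleared the scanner program's background test on 3 or more of the 18 arrays, and 43 of the 44 members passed. The remaining one, Psmd13 (a non-ATPase subunit of the regulatory particle), was above background on 0 arrays. No gene carried a Psmg name in the files.

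The proteasome is the main protease of the cytosol and nucleus and degrades proteins tagged with ubiquitin. Its core particle, the 20S, is a barrel of outer alpha rings, which gate the channel, and inner beta rings, which hold the proteolytic sites. The regulatory particle, the 19S, recognises ubiquitin, removes it, and unfolds and threads the substrate with a ring of ATPases. In immune cells and under interferon, the constitutive catalytic subunits Psmb5, Psmb6 and Psmb7 are exchanged for the inducible subunits Psmb8, Psmb9 and Psmb10, and the 11S activator of Psme1 and Psme2 can bind the barrel. Thyrocytes make, take up and degrade large amounts of thyroglobulin, mostly in lysosomes, whereas the proteasome disposes of misfolded proteins from the endoplasmic reticulum.

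The study compared central with peripheral areas of the thyroid lobe after partial thyroidectomy, called dissected, and in glands without that operation, called normal. The groups were dissected central with 5 arrays, normal central with 5, dissected peripheral with 5 and normal peripheral with 3, all from male C57BL/6 mice. Each array carried amplified RNA of 1 area captured by laser from frozen sections in Cy5, against a commercial assorted RNA of several Swiss Webster tissues in Cy3. Neither the time since surgery nor the animal behind each area is given in the labels, so areas may share an animal, and p-values measure the spread between captured areas and may be too small.

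All values below are log2 ratios of captured tissue over that reference, so 0 means the same signal as the reference, and a difference of 1 between groups is a doubling. Ratios of different genes also depend on how much of each transcript the reference holds, so levels were compared between groups for 1 gene at a time. The share of probes with a clear Cy5 signal ran from 24.7% to 44.0% over the arrays. In bulk RNA of this kind, fewer cells of a type and less RNA per cell cannot be told apart. Each group also occupied a fixed position on the slides, so position and group cannot be told apart. The thyrocyte markers Tg, Nkx2-1, Slc26a7, Duoxa2, Dio1 and Iyd were above background on all 18 arrays, while Foxe1 and Slc5a5 were above background on 0 arrays.

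The array measures each member through 60-base probes. Some of the probes discussed below are shown with their positions on the mouse build mm7 as the scanner files give them. The second Psmc6 probe and the probes of Psmb3, Psmb4 and Psmf1 are not shown. Psmb8 had a pair of neighbouring probes that share their boundary bases, shown in capitals, and so give nearly separate readings of 1 transcript. The Psmb1, Psmc6 and first Psmb8 probes map to a stretch longer than their own 60 bases, of 1296, 1827 and 325 bases, and exon boundaries were not determined. Only probes with at least 1 reading frame without a stop codon over their whole length were chosen to be shown.
Psmb8 probe that stands for the gene, chr17:32280725-32281049, plus strand: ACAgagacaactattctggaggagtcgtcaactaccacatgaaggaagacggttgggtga
Psmb8 upstream probe, chr17:32280668-32280727, plus strand: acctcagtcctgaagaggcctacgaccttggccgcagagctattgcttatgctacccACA
Psmb1 probe, chr17:13730028-13731323, minus strand: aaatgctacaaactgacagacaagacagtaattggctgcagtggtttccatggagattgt
Psmc6 probe, chr14:40665046-40666872, plus strand: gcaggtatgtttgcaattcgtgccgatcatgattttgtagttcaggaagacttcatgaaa
Psmd10 probe, chrX:135668421-135668480, minus strand: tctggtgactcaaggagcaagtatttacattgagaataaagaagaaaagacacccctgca

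The name Psme2b-ps needs a caution. It is the array's name for a gene whose current symbol is Psme2b, on chromosome 11, yet its probes lie on chromosome 14 of mm7 and list accessions of both Psme2 and Psme2b. Psme2 codes for the beta subunit of the 11S activator, and Psme2b is a near-identical copy, so signal of the pair could not be separated. The brighter of its probes, which stands for the gene, is shown first.
Psme2b-ps probe, chr14:50454846-50454905, minus strand: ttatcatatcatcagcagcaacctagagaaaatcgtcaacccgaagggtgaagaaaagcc
Psme2b-ps second probe, chr14:50455438-50455635, minus strand: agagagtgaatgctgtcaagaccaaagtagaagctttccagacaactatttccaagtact

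No member passed the test in any comparison (limma, Benjamini-Hochberg adjustment over 14664 genes, adjusted p under 0.05). This held for dissected against normal in the central area, where 0 of 43 members and 0% of all genes passed, and in the peripheral area, likewise with 0 of 43 members and 0% of all genes. It held for central against peripheral in normal thyroid, where 0.280% of all genes passed, and in dissected thyroid, where 0.586% passed. It also held for the central change after dissection minus the peripheral one, called the difference between areas below, where 0% of genes passed, and for the F test among the 4 groups, where 1.06% passed. The smallest adjusted p of a member was 0.99 and 0.524 for the change after dissection in the central and peripheral areas. It was 0.382 and 0.555 for central against peripheral in normal and dissected thyroid, 0.79 for the difference between areas, and 0.533 for the F test. With 43 members against such low background shares, a count of 0 is near what all genes gave.

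With loess normalization, the members did not stand out from all genes at an unadjusted p under 0.05 either. Median centring in place of loess gave larger counts in some comparisons, listed with the other settings at the end. In dissected minus normal central, 0 of 43 members passed, against 5.24% of all genes. In dissected minus normal peripheral, Psmc6 and Psmb4 passed, both higher, against 8.35% of all genes. In normal central minus normal peripheral, Psmb4 (higher) and Psmb3 (lower) passed, against 8.59%. In dissected central minus dissected peripheral, 4 members passed, all lower, namely Psmb8, Psmb1, Psmd10 and Psmf1, against 7.43% of all genes. For the difference between areas, Psmb1 and Psmb4 passed, against 5.82%, and in the F test Psmb4 alone passed, against 8.93%. Psmf1 was named after its values were seen.

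The intervals show how large a change these arrays could have missed. For dissected minus normal central thyroid, the 95% interval of 42 of the 43 members lay within a doubling and a halving, and so it did for 40 in the peripheral area. The median half-width of the interval was 0.38 on the log2 scale in the central and 0.44 in the peripheral area, against 0.41 and 0.47 over all genes. For the difference between areas, the interval lay within these bounds for 32 of 43 members, with a median half-width of 0.58.

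**Figure D1:**
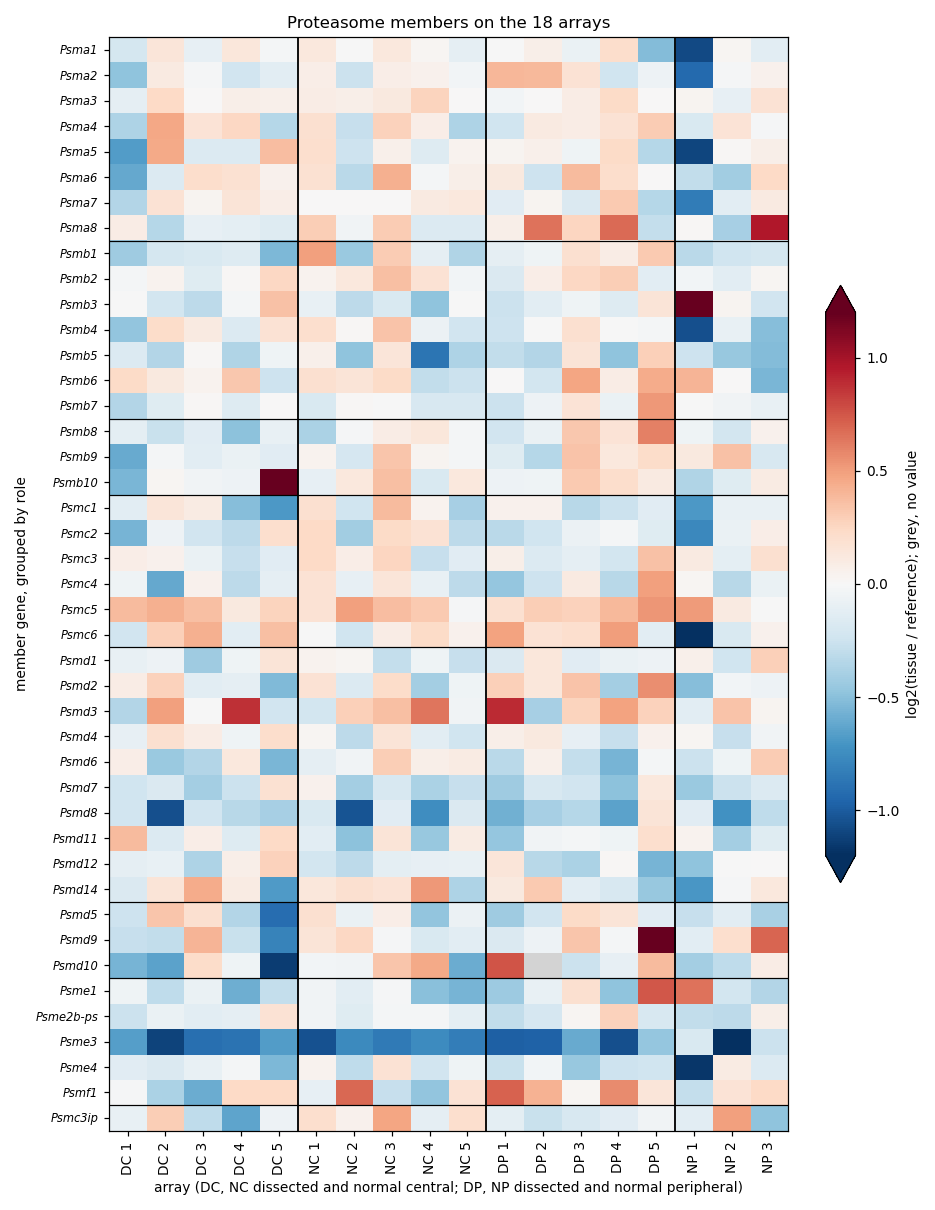
Log2 ratio of captured tissue over reference for the 43 tested members (rows, grouped by role) on each of the 18 arrays (columns, by group). Colours run from -1.2 to 1.2 and are clipped beyond; Psme3 is blue on all 18 arrays, and the normal peripheral 1 column holds the lowest or highest value of 11 members.

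Among the catalytic subunits, no difference between dissected and normal thyroid, in constitutive or inducible forms, was larger than the spread between arrays allowed the test to call. Psmb5 carries the chymotrypsin-like site and Psmb8 is its inducible counterpart. Psmb5 was at -0.16, -0.35, 0.01, -0.36 and -0.05 on the dissected central arrays, against 0.06, -0.48, 0.15, -0.88 and -0.37 on the normal central arrays. It was at -0.30, -0.35, 0.16, -0.48 and 0.29 on the dissected peripheral arrays, against -0.25, -0.45 and -0.52 on the normal peripheral arrays. All groups overlapped. The difference was 0.12 ± 0.19 (SE) in the central area, with a 95% interval of -0.28 to 0.52, and 0.27 ± 0.22 in the peripheral area, with an interval of -0.19 to 0.73 (limma, adjusted p = 0.998 and 0.769).

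Psmb8 was at -0.12, -0.27, -0.14, -0.49 and -0.09 on the dissected central arrays, against -0.38, -0.02, 0.09, 0.13 and -0.03 on the normal central arrays. It was at -0.23, -0.08, 0.33, 0.16 and 0.60 on the dissected peripheral arrays, against -0.05, -0.22 and 0.06 on the normal peripheral arrays. All 5 dissected central values were below 0, and they overlapped with the normal central ones through normal central 1. The change after dissection was -0.18 ± 0.15 in the central area (95% interval -0.50 to 0.14) and 0.23 ± 0.18 in the peripheral area (-0.14 to 0.60), with adjusted p = 0.998 and 0.754 (limma). The upstream Psmb8 probe gave -0.15 in the central area and 0.31 in the peripheral area.

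Psmb6 carries the caspase-like site and Psmb9 replaces it in the immunoproteasome. Psmb6 averaged 0.09 ± 0.22 on dissected central arrays and 0.01 ± 0.26 on normal central arrays (SD, n = 5 each). On peripheral arrays it averaged 0.16 ± 0.30 on dissected arrays (SD, n = 5) and -0.05 ± 0.48 on normal arrays (SD, n = 3). Psmb9 was at -0.60, -0.02, -0.13, -0.08 and -0.14 on dissected central arrays, against 0.04, -0.20, 0.33, 0.03 and -0.03 on normal central arrays. The value of dissected central 1 lay well below the other 4 of its group. The Psmb9 difference was -0.23 ± 0.16 in the central area (95% interval -0.56 to 0.10, adjusted p = 0.998, limma) and -0.13 without dissected central 1. In the peripheral area, Psmb9 was at -0.14, -0.35, 0.34, 0.13 and 0.22 on dissected arrays, against 0.12, 0.35 and -0.19 on normal arrays, and the groups overlapped, with a difference of -0.05 ± 0.18.

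Psmb7 carries the trypsin-like site and Psmb10 is its inducible counterpart. Psmb7 differed by -0.01 ± 0.13 between dissected and normal central arrays and by 0.10 ± 0.15 between dissected and normal peripheral arrays, with intervals of -0.29 to 0.26 and -0.22 to 0.42. Psmb10 was at -0.55, 0.02, -0.04, -0.06 and 1.24 on dissected central arrays, against -0.10, 0.12, 0.36, -0.18 and 0.12 on normal central arrays. Dissected central 1 and 5 were thus the lowest and the highest of all 18 arrays for Psmb10, with the normal central values between them. Its difference in the central area was 0.06 ± 0.24, and it was -0.22 when dissected central 5 was left out. On peripheral arrays Psmb10 was at -0.06, -0.05, 0.31, 0.21 and 0.10 on dissected arrays, against -0.36, -0.15 and 0.10 on normal arrays, a difference of 0.24 ± 0.27 (adjusted p = 0.856, limma).

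**Figure D2:**
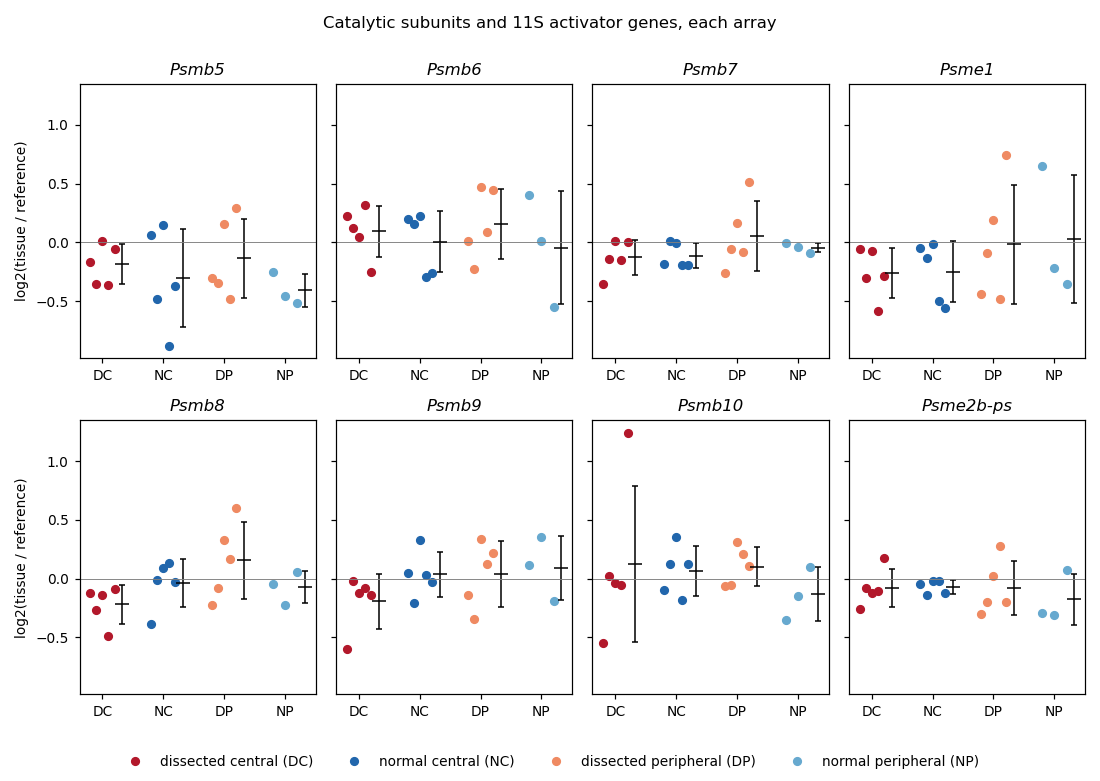
Log2 ratio of tissue over reference for the constitutive catalytic subunits (top), their inducible counterparts (bottom) and the 11S activator genes (right), with 1 point per array and bars for the mean and SD of each group. The groups overlap in every panel, and Psmb10 on dissected central 5 (1.24) lies above all other values shown.

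For the 11S activator genes, no difference after dissection passed the test. Psme1, the alpha subunit, was at -0.05, -0.30, -0.08, -0.58 and -0.28 on dissected central arrays and at -0.04, -0.13, -0.01, -0.50 and -0.56 on normal central arrays, a difference of -0.01 ± 0.23. On the peripheral arrays it was at -0.44, -0.09, 0.19, -0.48 and 0.75 in dissected and at 0.65, -0.22 and -0.35 in normal thyroid, a difference of -0.04 ± 0.27, which was 0.27 without normal peripheral 1. Dissected peripheral 5 and normal peripheral 1 were the highest of their groups. Psme2b-ps averaged -0.08 ± 0.16 on dissected and -0.07 ± 0.06 on normal central arrays (SD, n = 5 each), and its interval for the change, -0.27 to 0.25, was among the narrower ones.

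Psme3, which codes for the nuclear activator PA28 gamma, was below the reference on all 18 arrays, with values of -1.24 to -0.18. It averaged -0.85 in dissected central and -0.85 in normal central thyroid, with SDs of 0.19 and 0.12, and the difference was under 0.01 with an interval of -0.38 to 0.38. On peripheral arrays Psme3 was at -0.98, -0.97, -0.61, -1.05 and -0.47 on dissected arrays and at -0.18, -1.24 and -0.26 on normal arrays. The normal peripheral arrays spanned the whole range of the dissected ones, and the difference was -0.26 ± 0.21 (adjusted p = 0.77, limma). It was -0.07 without normal peripheral 1, -0.11 without normal peripheral 3 and -0.60 without normal peripheral 2. Psme4, which codes for the activator PA200, differed by -0.12 ± 0.19 in the central and 0.16 ± 0.22 in the peripheral area.

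In the alpha ring, the central area showed 1 of 8 members higher in dissected thyroid and the peripheral area 8 of 8, yet none passed the test. The median difference of the 8 was -0.05 in the central area and 0.24 in the peripheral area. Normal peripheral 1 held the lowest of all 18 values for Psma1, Psma2, Psma5 and Psma7, at -1.08, -0.93, -1.10 and -0.84. The peripheral count and median thus lean on that array, and they include Psma8, which was mostly below background. Psma2 was the alpha subunit with the smallest p, at 0.40, 0.39, 0.18, -0.24 and -0.06 on dissected peripheral arrays, against -0.93, -0.02 and 0.05 on normal peripheral arrays. Only normal peripheral 1 lay outside the dissected range, and the difference of 0.43 ± 0.21 (adjusted p = 0.607, limma) became 0.11 without that array. Psma8, a germline form of Psma7, was above background on 0 of 5 dissected central arrays and on 5 of 18 in all, so no fold is given for it.

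Among the non-catalytic beta subunits, Psmb1 was the member whose arrays separated. It was at -0.11, -0.05, 0.19, 0.09 and 0.32 on dissected peripheral arrays, against -0.33, -0.24 and -0.21 on normal peripheral arrays, and these values did not overlap. Groups failed to overlap for 1 of 43 members in this comparison, Psmb1, against 4.21% of all genes. The difference was 0.34 ± 0.19 with a 95% interval of -0.06 to 0.74 and did not pass the test (adjusted p = 0.632, limma). In the central area Psmb1 was at -0.42, -0.21, -0.18, -0.16 and -0.54 on dissected arrays and at 0.49, -0.45, 0.31, -0.11 and -0.36 on normal arrays. The ranges overlapped, the normal central one being the wider, and the difference was -0.28 ± 0.16. In that comparison 0 of 43 members had groups without overlap, against 1.00% of all genes.

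Psmb4 was at -0.25, -0.0042, 0.19, -0.0083 and -0.02 on dissected peripheral arrays, against -1.06, -0.09 and -0.51 on normal peripheral arrays. Normal peripheral 1 and 3 were the lowest of all 8 peripheral arrays, and normal peripheral 2 lay within the dissected range. The difference was 0.53 ± 0.20, a fold of 1.45 with a 95% interval on the log2 scale of 0.10 to 0.96 (adjusted p = 0.557, limma), and 0.28 without normal peripheral 1. Psmb3 went the other way, at -0.25, -0.13, -0.05, -0.16 and 0.16 on dissected peripheral arrays, against 2.00, 0.03 and -0.23 on normal peripheral arrays. Normal peripheral 1 alone stood apart, and the difference of -0.68 ± 0.34 became 0.02 without it. A second Psmb3 probe read 0.21 on that array and gave a difference of -0.28.

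The ATPase ring unfolds the substrate. In the central area 2 of its 6 members were higher in dissected thyroid and in the peripheral area 5 of 6, with medians of -0.14 and 0.11, and none passed the test. For Psmc2 and Psmc6, normal peripheral 1 held the lowest of all 18 values, at -0.78 and -1.37, and so weighed on the peripheral values. Psmc6 had the smallest p of all members for the change in the peripheral area. It was at 0.48, 0.17, 0.21, 0.50 and -0.13 on dissected peripheral arrays, against -1.37, -0.18 and 0.05 on normal peripheral arrays. The groups overlapped, and normal peripheral 1 was the lowest of all 18 arrays. The difference was 0.75 ± 0.26, a fold of 1.68 with a 95% interval on the log2 scale of 0.20 to 1.29 (unadjusted p = 0.00979, adjusted p = 0.524, limma), and it was 0.31 without normal peripheral 1. The second Psmc6 probe gave 0.08 for the same difference, and for dissected minus normal central it gave -0.59 where the first gave 0.12.

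The non-ATPase subunits include the ubiquitin receptor Psmd4, scaffold proteins such as Psmd11, Psmd12 and Psmd6 of the lid, and the deubiquitinase Psmd14. Of 10 tested genes, 6 were higher in dissected than in normal central thyroid and 7 in dissected than in normal peripheral thyroid, with medians of 0.01 and 0.06. Psmd11 was at 0.38, -0.16, 0.08, -0.16 and 0.24 on dissected central arrays, against -0.12, -0.49, 0.15, -0.46 and 0.09 on normal central arrays. The ranges overlapped, and the difference was 0.24 ± 0.16 (adjusted p = 0.998, limma). Psmd4 differed by 0.17 ± 0.12 and Psmd12 by 0.12 ± 0.15 in the same comparison, but a second Psmd12 probe gave -0.35. Psmd6 was at 0.08, -0.44, -0.36, 0.13 and -0.55 on dissected central arrays, against -0.11, -0.04, 0.29, 0.07 and 0.10 on normal central arrays. Dissected central 2, 3 and 5 lay below all normal central arrays and the other two within their range, and the difference was -0.29 ± 0.16 with a 95% interval of -0.63 to 0.05 (adjusted p = 0.99, limma).

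Psmd5, Psmd9 and Psmd10 are chaperones that assemble the ATPase ring and are not part of the finished particle. All 3 were lower in dissected than in normal central thyroid, with a median of -0.26, and all 3 were higher in dissected than in normal peripheral thyroid, with a median of 0.19, none past the test. Psmd10, also known as gankyrin, was at -0.55, -0.65, 0.22, -0.05 and -1.14 on dissected central arrays, against -0.03, -0.04, 0.33, 0.46 and -0.60 on normal central arrays. Dissected central 5 was the lowest of all arrays, and the groups overlapped. The difference was -0.46 ± 0.26 with a 95% interval of -1.02 to 0.10 (adjusted p = 0.998, limma), and -0.28 without dissected central 5. Within slides, dissected central was below normal central on 5 of 5 slides, by differences of -0.61 to -0.12. The share of all genes that were lower on 5 of 5 slides was not counted. With slide as a block, the Psmd10 difference was -0.46 (adjusted p = 0.846, limma). On peripheral arrays Psmd10 was at 0.75, -0.26, -0.10 and 0.38 in dissected thyroid, where 1 array had no value because its spot was marked non-uniform, and at -0.41, -0.31 and 0.09 in normal thyroid. Psmd9 was above background on 11 of 18 arrays and on 1 of 5 dissected central ones, so its values there are weak.

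**Figure D3:**
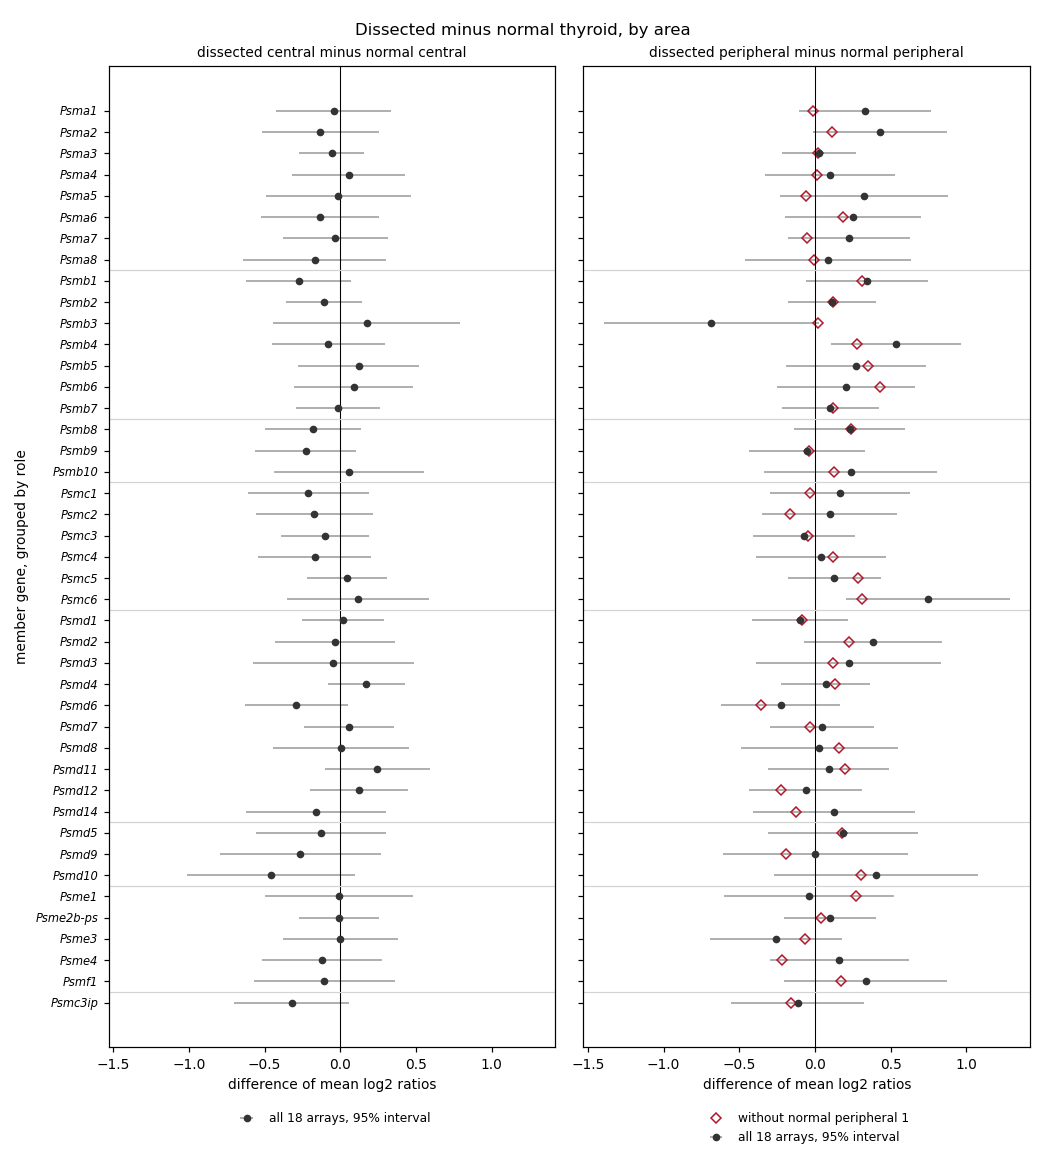
Difference of mean log2 ratios for the 43 tested members, dissected minus normal, in the central area (left) and the peripheral area (right), with 95% intervals (grey bars); open diamonds leave out normal peripheral 1. Intervals exclude 0 for Psmc6 and Psmb4 on the right and for no member on the left; without normal peripheral 1, Psmb3 is at 0.02 in place of -0.68 and Psmc6 at 0.31 in place of 0.75.

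Over all members, the median difference between dissected and normal was -0.05 in the central area, with 14 of 43 above 0, and 0.11 in the peripheral area, with 34 of 43 above 0. The medians over all genes were -0.01 and 0.01. Within the first and the second scanning day, the members' median was -0.07 and -0.03 in the central area and 0.06 and 0.19 in the peripheral area. Normal peripheral 1 weighed on the peripheral values. It had the lowest share of probes above background of the 18 arrays, and it held the lowest or highest of all values for 11 of 43 members, against 24.4% of all genes. Its members' log2 ratios correlated at -0.02 with the mean of the other arrays, whereas the other 17 arrays ranged from 0.18 to 0.70. Without it, 26 of 43 members were above 0 in dissected minus normal peripheral, the median was 0.11, and 0 members passed at an unadjusted p under 0.05 (limma), against 4.96% of all genes. Dissected peripheral 5 and dissected central 5 held the extreme value for 11 and 10 members, against 15.9% and 24.2% of all genes.

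Central against peripheral was compared next. In dissected thyroid, 12 of 43 members were higher in the central than in the peripheral area, with a median of -0.05, against a median of 0.00 over all genes. Psmb8 was the member with the smallest p. Its dissected central values of -0.12, -0.27, -0.14, -0.49 and -0.09 stood against -0.23, -0.08, 0.33, 0.16 and 0.60 on dissected peripheral arrays. Dissected peripheral 1 lay within the central range and the other 4 above it. The difference was -0.38 ± 0.15, a fold of 0.77 with a 95% interval on the log2 scale of -0.70 to -0.06 (unadjusted p = 0.0231, adjusted p = 0.555, limma). The upstream probe, which shares only its boundary with the first, gave -0.35. The other inducible subunits had differences of -0.23 ± 0.16 for Psmb9 and 0.02 ± 0.24 for Psmb10.

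Psmb1 was lower on every dissected central array (-0.42, -0.21, -0.18, -0.16 and -0.54) than on any dissected peripheral array (-0.11, -0.05, 0.19, 0.09 and 0.32). It was the 1 member of 43 whose groups did not overlap here, against 1.67% of all genes. The difference was -0.39 ± 0.16, a fold of 0.764 with a 95% interval on the log2 scale of -0.73 to -0.04 (adjusted p = 0.603, limma). Psmd10 differed by -0.63 ± 0.28 (adjusted p = 0.628), with values from -1.14 to 0.22 on dissected central arrays and from -0.26 to 0.75 on dissected peripheral arrays. Within the first scanning day the Psmd10 difference was 0.26 and within the second it was -1.35. Psmf1, the inhibitor PI31, was at -0.02, -0.38, -0.60, 0.24 and 0.24 on dissected central arrays, against 0.71, 0.42, 0.02, 0.57 and 0.15 on dissected peripheral arrays. The ranges overlapped and the difference was -0.47 ± 0.22 (adjusted p = 0.667, limma), while a second Psmf1 probe gave -0.01. In the other direction Psmd12, Psmd11 and Psmd4 were higher in the central area by 0.18 ± 0.15, 0.16 ± 0.16 and 0.09 ± 0.12, none past the test. A second Psmd12 probe gave 0.03.

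**Figure D4:**
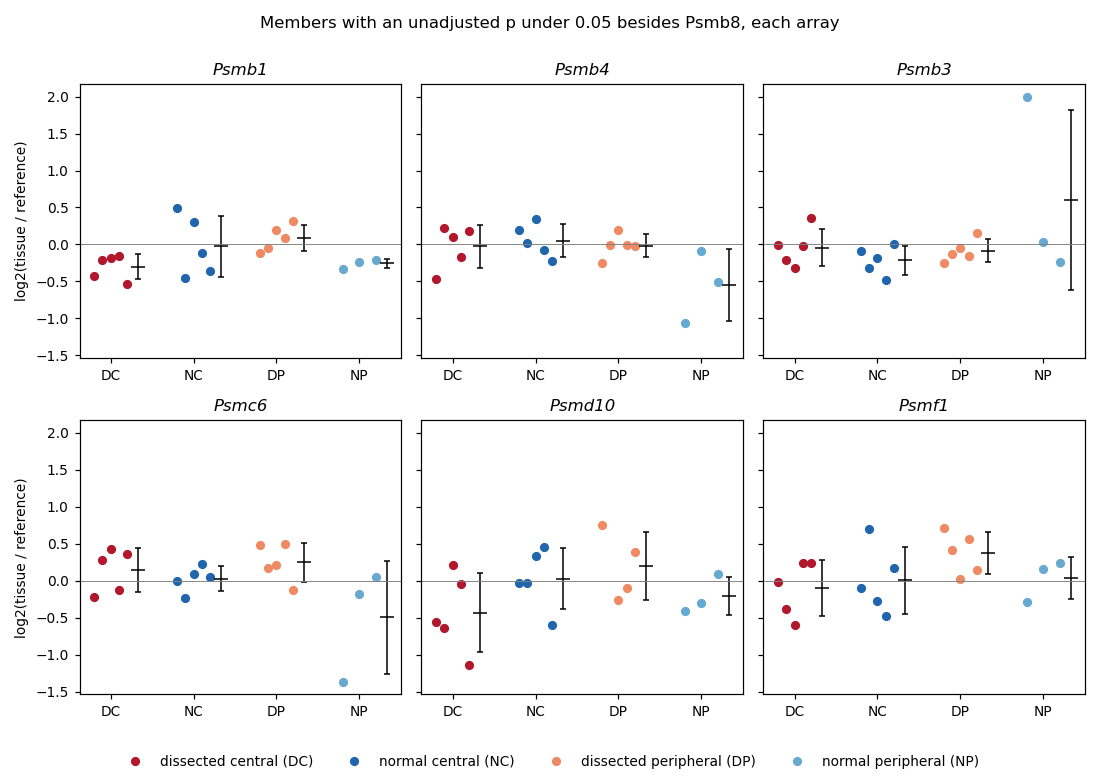
Log2 ratio of tissue over reference for Psmb1, Psmb4, Psmb3, Psmc6, Psmd10 and Psmf1, with 1 point per array and bars for the mean and SD of each group. The lone high Psmb3 value (2.00) and the lowest Psmb4 and Psmc6 values (-1.06 and -1.37) are all from normal peripheral 1.

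In normal thyroid, 29 of 43 members were higher in the central than in the peripheral area, with a median of 0.09, against 0.01 over all genes. No member had groups without overlap, 0 of 43, against 4.86% of all genes. Psmb4 was at 0.20, 0.02, 0.34, -0.07 and -0.23 on normal central arrays, against -1.06, -0.09 and -0.51 on normal peripheral arrays. The difference of 0.60 ± 0.20, a fold of 1.52 with a 95% interval on the log2 scale of 0.17 to 1.03 (unadjusted p = 0.00871, adjusted p = 0.382, limma), was 0.35 without normal peripheral 1. For Psmb3 the difference of -0.81 ± 0.34 became -0.11 without that array, for Psma1 0.43 ± 0.21 became 0.08, and for Psmc6 0.52 ± 0.26 became 0.09. Psma1, at 0.13, -0.0022, 0.12, 0.02 and -0.11 on normal central arrays against -1.08, 0.03 and -0.13 on normal peripheral ones, again had 1 array that stood apart. Without normal peripheral 1, 0 members passed at an unadjusted p under 0.05, against 5.02% of all genes.

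**Figure D5:**
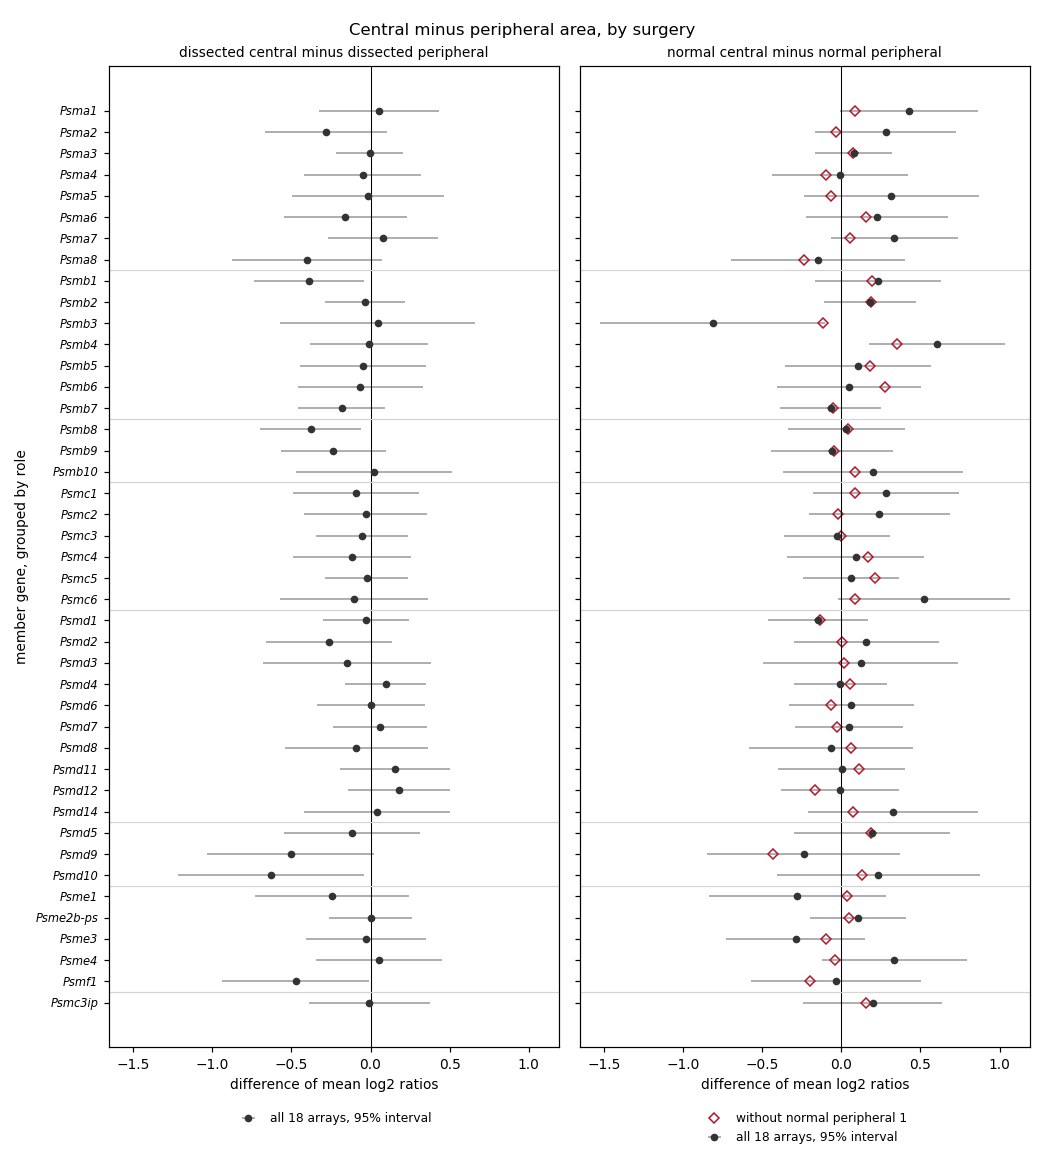
Difference of mean log2 ratios for the 43 tested members, central minus peripheral, in dissected thyroid (left) and normal thyroid (right), with 95% intervals (grey bars); open diamonds leave out normal peripheral 1. Psmb1, Psmb8, Psmd10 and Psmf1 have intervals below 0 on the left, at differences of -0.39, -0.38, -0.63 and -0.47.

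The same fit registered differences in cell type markers between the areas. Of 10 measured C cell markers, 9 were higher in dissected central than in dissected peripheral thyroid and 8 in normal central than in normal peripheral thyroid (limma, adjusted p under 0.05), with median differences of 3.19 and 2.68. C cells are the calcitonin-producing cells of the thyroid and lie mainly in the centre of the lobe. After dissection, 0 of 10 C cell markers were above 0 in either area, with medians of -0.73 in the central and -0.97 in the peripheral area, and 0 passed the test. The mean of these markers ran from -1.38 to 1.14 over dissected central arrays and from 0.72 to 1.63 over normal central arrays. The median arrays of the central groups were close, at 0.80 and 0.82. Dissected peripheral arrays ran from -2.71 to -2.29 and normal peripheral arrays from -1.91 to -1.05. Leukocyte markers, which bear on the inducible subunits, were above 0 for 12 of 13 in the central and 10 of 13 in the peripheral change after dissection, with medians of 0.25 and 0.13 and 0 past the test. Their summed ratio was 12.3 to 15.9 on dissected central arrays and 10.6 to 13.8 on normal central arrays. In the peripheral area it was 11.6 to 19.4 on dissected arrays and 10.9 to 16.0 on normal arrays. For the same change, the inducible subunits Psmb9, Psmb8 and Psmb10 were at -0.23, -0.18 and 0.06 in the central area. In the peripheral area they were at -0.05, 0.23 and 0.24, and none passed the test in either area. Of the thyrocyte markers, 10 measured ones are reported, and 0 passed the test in any comparison. They were above 0 for 4 of 10 in dissected minus normal central thyroid (median -0.02) and for 10 of 10 in dissected minus normal peripheral thyroid (median 0.18). In central minus peripheral they were above 0 for 1 of 10 in dissected thyroid (median -0.20) and for 6 of 10 in normal thyroid (median 0.08), and for the difference between areas 1 of 10 was above 0 (median -0.24). The part of thyrocytes, leukocytes or C cells in the members' values was not tested.

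The difference between areas, the central change after dissection minus the peripheral one, was above 0 for 8 of 43 members. The median was -0.21, against -0.02 over all genes. The comparison uses all 4 groups, so it shares its arrays with the changes above. Psmb1 had the smallest p, at -0.62 ± 0.25 with a 95% interval of -1.15 to -0.09 (unadjusted p = 0.0242, adjusted p = 0.79, limma), and -0.58 without normal peripheral 1. Psmb4 was at -0.61 ± 0.27 and -0.36 without that array, and Psmd10 was at -0.86 ± 0.41 and -0.76 without it. Within the first scanning day alone, Psmd10 was at -0.04. Psmb3 was at 0.86 ± 0.45 and 0.16 without that array. Psmb8 was at -0.41 ± 0.23, from changes of -0.18 in the central and 0.23 in the peripheral area. In the F test over the 4 groups, Psmb4, Psmc6 and Psmb1 had the smallest p-values, unadjusted 0.0432, 0.0558 and 0.107, with adjusted p = 0.533, 0.576 and 0.663 (limma).

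Members varied together to a limited degree from array to array within groups. After subtraction of the group means, the correlation of a member with the mean of the other members over 18 arrays had a median of 0.26, and it was above 0 for 36 of 43 members. Over all genes tested, the correlation with the members' mean had a median of 0.01. All values share the arrays and their normalization, so this is a description. Psmb1 had the highest value at 0.74, followed by Psmc2 at 0.69 and Psmb4 at 0.67, and Psmb3 the lowest at -0.47. Without normal peripheral 1 the median was 0.26, and Psmb1 stood at 0.78. Between single members the median over 903 pairs was 0.10. Psmb5 correlated with Psmb6 at 0.54 and with Psme1 at 0.73, while the inducible subunits Psmb8 and Psmb9, which both lie in the major histocompatibility complex on chromosome 17, correlated at 0.23. Within groups, the residual SD of a member had a median of 0.29, with the lowest for Psma3 at 0.11 and the highest for Psmb3 at 0.50, against 0.32 over all genes.

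Genes around the proteasome were looked at as 5 lists, and none of their genes passed the test in any comparison. Among partners with other names (such as the maturation factor Pomp, the ubiquitin receptor Adrm1 and the deubiquitinases Uchl5 and Usp14), 5 of 9 were higher in dissected than in normal central thyroid, with a median of 0.03. In the peripheral area 8 of 9 were, with a median of 0.36, from -0.19 for Usp14 to 0.76 for Zfand5. Over all genes, 48.7% were above 0 in the central and 51.0% in the peripheral change, with medians of -0.01 and 0.01. The lists were not refitted without normal peripheral 1, which weighed on the members' peripheral values. In the list of the transcription factors that drive proteasome genes, Nfe2l1 and Nfe2l2, and of their partners, 8 of 10 genes were higher in dissected central and 9 of 10 in dissected peripheral thyroid, with medians of 0.09 and 0.26. Nfe2l1 itself differed by 0.10 ± 0.14 and 0.30 ± 0.17, and Maff, a small partner protein of such factors, by 0.78 ± 0.33 and 1.05 ± 0.39 (adjusted p = 0.895 and 0.533, limma). Ubiquitin genes, the activating enzyme and shuttle factors had medians of -0.05 and 0.00 over 11 genes. Genes of class I antigen presentation and the interferon response had medians of 0.07 and 0.21 over 12 genes. The core assembly chaperones Psmg1, Psmg2 and Psmg3, present under older names, were at -0.45 ± 0.16, -0.23 ± 0.14 and 0.27 ± 0.23 in the central area (adjusted p = 0.778, 0.998 and 0.998, limma). In the peripheral area Psmg1 and Psmg2 differed by under 0.01 and Psmg3 by 0.26 ± 0.26.

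Promoter windows of 250 bases before to 50 after the start site were available in a RefSeq table of GRCm38.p6 for 37 of the 44 members. They were searched on both strands for 3 short motifs, since the regulators of these genes are known. The antioxidant response element core TGANNNNGC, bound by Nfe2l1 and Nfe2l2, occurred in 20 of 37 members (54.1%), against 45.0% of 27025 genes. The core GAAANNGAA of the interferon-stimulated response element occurred in 6 of 37 (16.2%), against 9.76% of all genes. The gamma-activated site TTCNNNGAA occurred in 2 of 37 (5.41%), Psmb8 and Psmd2, against 9.55% of all genes. These are matches of letters and not sites shown to be bound. Shown with the match in capitals are the catalytic subunit Psmb5, with an antioxidant response element core that starts 47 bases before the start site, Psmb8, with a gamma-activated site at 97 bases, and Psmb9, with an antioxidant response element core at 60 bases.
Psmb5, chr14:54618019-54618057, minus strand: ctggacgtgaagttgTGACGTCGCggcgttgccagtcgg
Psmb8, chr17:34198083-34198121, plus strand: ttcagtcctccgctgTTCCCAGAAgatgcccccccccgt
Psmb9, chr17:34187367-34187405, minus strand: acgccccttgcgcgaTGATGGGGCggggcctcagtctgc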

How the data were processed

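Scanner files of 18 two-colour arrays were analysed. Per the file headers, they hold spot and background intensity from version 9.5.1.1 of Agilent Feature Extraction. The version in the submitters' processing notes is 8.5.1.1. The same deposited files give that program's log10 ratio of Cy5 over Cy3. The authors also deposited a table of linear ratios, used only as an alternative, whose columns followed the scanner ratios after centring of each probe and whose processing is not given in the sources used here. The column medians of those deposited ratios ran from 0.871 to 1.064.

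Here, mean intensities were background-corrected with normexp (offset 50) and loess-normalized within arrays, control spots having weight 0. Non-uniform spots were left out and spots of 1 probe averaged. Probes above background in Cy5 on at least 3 arrays were kept (19082), and the brightest stood for its gene (14664 genes). One linear model with 4 group means was fitted in limma 3.58.1 (R 4.3.3), with eBayes and Benjamini-Hochberg adjustment over all genes. The fit was tested on simulated data. The number of arrays limits the precision. Positions are on mm7 for probes and on GRCm38.p6 for promoters.

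Named members were the catalytic subunits with their inducible counterparts, Psme1 and Psme2b-ps, the 3 members of smallest p in each direction of each comparison and the 3 of smallest F test p. Members and lists were chosen with earlier results of these data known. Samples of 1 replicate number lay on 1 slide, per the file headers, except normal peripheral 3. 1 thyrocyte marker is not reported here. Alternatives covered normalization, background, filters, probe choice, blocks for slide, scan day and replicate, the deposited table, and each array left out; 3 more were added after seeing the data.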

Additional observations from a re-analysis of the deposited data

Results flagged for a closer look

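Psmb9 on dissected central 1 was at -0.60, while the other 4 dissected central arrays lay between -0.14 and -0.02. The gap to the nearest array made up 0.80 of the group's range, more than Dixon's test allows for 5 values. It was the 1 flag among 63 groups of values of named members, and chance flags about 1 in 20 such groups. Normal peripheral thyroid, with 3 arrays, had too few values to be checked. Values such as Psmb3 at 2.00 on normal peripheral 1 could therefore not be flagged. Psmb9 differed by -0.23 between dissected and normal central arrays and by -0.13 without that array. Dissected central 1 was also the lowest array for Psmb10, at -0.55. It was among the 4 arrays with under 31% of probes above background, and the part of that in its values was not tested.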

How the results depend on the processing

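No member passed the test under any of 34 other settings, of which 3 were chosen after seeing the data (scan day 1 alone, scan day 2 alone, and without the 4 arrays with under 31% of probes above background). The smallest adjusted p of a named member was 0.09, and of 2297 recomputed differences of named members 140 changed sign. The members' median kept its sign in every comparison and setting. It moved by more than its spread between arrays (0.10) with median centring in place of loess, to -0.29, 0.61, 0.62 and -0.25 for dissected minus normal central, dissected minus normal peripheral, normal central minus normal peripheral and dissected central minus dissected peripheral, and to -0.93 for the difference between areas. The median over all genes then shifted too, to -0.15, 0.23, 0.28, -0.12 and -0.40, and members' probes are brighter (median log2 intensity 9.77) than those of all genes tested (8.09). At an unadjusted p under 0.05 (limma), 22 of 43 members then passed in dissected minus normal peripheral, all higher, against 18.5% of all genes. In normal central minus normal peripheral 18 passed, all higher, against 21.8%. For the difference between areas 22 passed, all lower, against 23.1%. In dissected minus normal central 2 passed (7.20% of all genes) and in dissected central minus dissected peripheral 4 (7.55%), all lower. Scale normalization between arrays gave 0.23 for dissected minus normal peripheral and 0.21 for normal central minus normal peripheral. The authors' value table gave 0.19 for normal central minus normal peripheral and -0.31 for the difference between areas, against 0.13 and -0.15 over all genes. The members' median for the difference between areas was -0.11 without the 4 weak arrays. The cause was not tested. With each array left out, the 5 medians ran from -0.10 to -0.03, 0.10 to 0.20, 0.05 to 0.12, -0.08 to -0.03 and -0.24 to -0.15.

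Of 24 same-numbered pairs 21 shared a slide, and 9 correlated over 0.1 (range -0.07 to 0.29), too few to take the numbers as a pairing over all groups. Dissected central and dissected peripheral arrays of replicates 1 to 5 correlated at 0.13, 0.21, 0.15, 0.20 and 0.07. Normal central and dissected peripheral arrays were at 0.00, 0.04, 0.09, -0.03 and -0.02. Dissected central and normal central arrays were at -0.05, 0.06, 0.23, 0.02 and 0.09. Dissected central and normal peripheral arrays of replicates 1 to 3 were at 0.29, 0.17 and -0.01. Values over 0.1 thus also occurred between dissected and normal thyroid. Except for dissected central 3 with normal peripheral 3, these pairs also share a slide, so a shared animal and a shared slide cannot be told apart. With slide as a block 0 members were called, and the members' medians were -0.05 for dissected minus normal central, 0.11 for dissected minus normal peripheral, 0.07 for normal central minus normal peripheral, -0.05 for dissected central minus dissected peripheral and -0.16 for the difference between areas; over all genes it called 18 in normal central minus normal peripheral. With a replicate block 0 members were called, and the members' median was 0.14 for dissected minus normal peripheral and -0.21 for the difference between areas. Over all genes, the block called 4 in normal central minus normal peripheral, against 41 without it. Calls over all genes ran from 0 (scan day 2 alone) to 154 in that comparison (median centring), from 0 to 193 in dissected central minus dissected peripheral, from 0 to 198 in the F test, from 0 to 5 in dissected minus normal peripheral, from 0 to 1 in dissected minus normal central and from 0 to 4 for the difference between areas. Few arrays and weak tissue signal limit what could be detected.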
